A study of Homo sapiens with 16 samples.

Results

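The Src family kinases LYN, BLK, LCK, FYN and FGR and their negative regulator CSK were followed across 8 human B-cell lines. These 6 genes were taken by symbol, as every probe set that the array's annotation gives to exactly 1 of them. That rule found 14 probe sets for the 6 genes, of 19775 genes with a probe set of their own, and used no measured value. For each gene the probe set of highest mean intensity stands for the gene, and the others are given beside it. All 6 genes passed the filter on low values, which asked that a gene exceed its array's 60th percentile (intensities of 21.5 to 31.7) on at least 2 of 16 arrays and kept 12305 genes.

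Src family kinases are membrane-anchored tyrosine kinases. In B cells LYN, BLK and FYN phosphorylate the ITAM motifs of CD79A and CD79B after the B-cell receptor is engaged, which recruits SYK and leads on to BTK. LYN also phosphorylates inhibitory co-receptors such as CD22, so it both starts and damps the signal. LCK is best known as the kinase of the T-cell receptor, and it is also found in B-1 cells and in chronic lymphocytic leukaemia. FGR is mainly a kinase of myeloid cells and of B cells infected with Epstein-Barr virus. CSK phosphorylates the carboxy-terminal tyrosine of the family members and so holds them inactive, while the phosphatase CD45 (PTPRC) removes that phosphate.

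The series asks how such lines respond when IKKbeta, the kinase that releases classical NF-kB, is inhibited. Cells of each line received AFN700, an IKKbeta inhibitor, at 5 uM, or its solvent DMSO at 0.025%, and were kept for 20 hours. Total RNA gave 1 array per line and treatment, 8 DMSO and 8 AFN700 arrays. Sensitivity to "stn" and to ibrutinib, an inhibitor of BTK, is given in the labels: SP49 and REC-1 are sensitive, and JVM-13, JVM-2, Maver-1, Z-138, GRANTA-519 and HBL-2 are not. The medium was DMEM for GRANTA-519 and RPMI for the rest. The series groups them as mantle cell lymphoma lines, though JVM-2 and JVM-13 are known as lines immortalised with Epstein-Barr virus from B-prolymphocytic leukaemia. The line is the replicate, as 1 established culture, so a single line's value carries no error of its own. One label conflicts: the treated JVM-13 array is AFN700 by its title and AFN701 by its treatment field, and it was used as the treated array here. All 9 NF-kB reporter genes tested, which the inhibitor is meant to lower, were higher on that array than on the DMSO array of JVM-13. That DMSO array stood apart from the others, as given below, and in Maver-1 8 of 9 reporters were also higher with AFN700. Whether the label, the DMSO array or the line lies behind the JVM-13 values was not tested. Directions given for JVM-13 are between its arrays as labelled, and results over the lines are also given without it.

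B-cell markers were present in every line: 10 of 10 measured markers exceeded the filter level on all 16 arrays, with summed intensities of 14135.3 to 21368.3 under DMSO. Of the mantle cell lymphoma markers, CCND1 exceeded it on 14 arrays, SOX11 on 12 and CD5 on 2. One array stood apart, that of JVM-13 under DMSO, whose median log2 intensity over the genes tested was 7.25 against 7.82 to 8.02 on the other arrays. Between its 2 arrays 32.7% of genes moved at least 2-fold, against 2% to 14.3% in the other lines. The 3'/5' intensity ratio of the actin control probes, a sign of RNA quality, went from 1.9 to 16.68 in HBL-2 and from 10.33 to 18.83 in Maver-1 with AFN700. Across the other lines it was 2.01 to 6.39. Precision is limited throughout by the number of arrays.

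The inhibitor acts on NF-kB, so the stretch before each gene's start was searched for the NF-kB consensus on both strands. Promoters from RefSeq (GRCh38.p14) were matched for 4 of the 6 genes, 9 promoters in all, and the 250 bases before each start were read. A match was found in 2 of these 9 windows, and in 5.21% of all 35116 windows of the same length. The first LCK window, chr1:32251015-32251264 on the plus strand, held 1 match on the reverse strand that begins 144 bases before the start. The second LCK window, chr1:32273871-32274120 on the plus strand, held none. The second FYN window, chr6:111873072-111873321 on the minus strand, held 1 match that begins 45 bases before the start. They are printed because LCK and FYN are the genes whose response to AFN700 had the highest means over the lines, with the match in capitals and all other bases in lower case.
LCK promoter 1: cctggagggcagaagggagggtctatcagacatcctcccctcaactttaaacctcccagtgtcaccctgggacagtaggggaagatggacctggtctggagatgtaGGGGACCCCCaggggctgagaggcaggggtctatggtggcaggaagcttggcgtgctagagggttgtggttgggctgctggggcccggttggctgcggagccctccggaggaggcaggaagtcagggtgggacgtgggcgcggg
LCK promoter 2: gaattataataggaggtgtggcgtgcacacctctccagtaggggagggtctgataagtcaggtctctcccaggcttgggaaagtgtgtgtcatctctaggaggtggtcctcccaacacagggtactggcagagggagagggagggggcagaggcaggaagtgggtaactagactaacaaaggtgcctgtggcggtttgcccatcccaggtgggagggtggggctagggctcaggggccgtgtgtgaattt
FYN promoter 2: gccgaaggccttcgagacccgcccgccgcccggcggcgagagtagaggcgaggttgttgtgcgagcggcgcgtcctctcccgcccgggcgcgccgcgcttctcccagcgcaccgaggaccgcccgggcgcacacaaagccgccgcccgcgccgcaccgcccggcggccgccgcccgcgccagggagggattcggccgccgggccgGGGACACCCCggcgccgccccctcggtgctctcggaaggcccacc
A match describes the letters only, and no binding was measured here.

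Which kinase each line expressed under DMSO was the first question. LYN, the main Src family kinase of B cells, was high in all 8 lines, as was CSK, and BLK exceeded the filter level on all 16 arrays. LCK, FYN and FGR differed most between lines: FYN spanned 6.67 and FGR 7.70 on the log2 scale, against 1.75 for LYN and 1.98 for CSK. Log2 values here are of intensity plus 3.3, which understates differences of low genes. Levels are compared between lines for 1 gene at a time, since probe sets of different genes bind with different strength.

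LYN had DMSO intensities of 3578.2 in JVM-13, 3273.5 in SP49, 2745.7 in REC-1, 1906.6 in JVM-2, 1852.6 in Maver-1, 1850.1 in HBL-2, 1524.5 in GRANTA-519 and, lowest, 1062.2 in Z-138. JVM-13, on the array that stood apart, and the 2 sensitive lines were highest, and the range over the lines was 3.4-fold. The SD between the 2 arrays of a line, which includes any treatment effect, was 0.14 on the log2 scale for LYN, and that between line means was 0.57. JVM-2, Maver-1 and HBL-2 lay within the SD between arrays of each other. The other LYN probe sets, 202626_s_at and 210754_s_at, correlated with this one at r = 0.978 and 0.938 over the 16 arrays, which include both arrays of each line. Their DMSO levels spread more widely, over 2.73 and 2.74 on the log2 scale.

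BLK, a kinase of B-lineage cells, had DMSO intensities of 219.6 in SP49, 146.9 in GRANTA-519, 86.9 in REC-1, 77.3 in JVM-2, 69.4 in Maver-1, 67.6 in HBL-2, 37.4 in JVM-13 and 27.5 in Z-138. SP49 and GRANTA-519 were highest, and the values from REC-1 down to HBL-2 differed by about the SD between arrays of a line or less, 0.34 on the log2 scale. A further BLK probe set, 210934_at, gave 0.6 to 12.4 and never exceeded the filter level.

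LCK had DMSO intensities of 200.8 in SP49, 132.0 in REC-1, 111.5 in Z-138, 89.7 in GRANTA-519, 49.1 in Maver-1, 29.5 in HBL-2, 25.1 in JVM-13 and 15.1 in JVM-2. Both sensitive lines stood above all 6 insensitive lines, a pattern that 5.68% of the genes tested showed. The SD between arrays of a line was 0.67 on the log2 scale, so the step from REC-1 to Z-138 is smaller than that spread. LCK exceeded the filter level on 14 of 16 arrays, and JVM-2 was below it under both treatments. The other LCK probe set, 204890_s_at, correlated with it at r = 0.928 and ranked SP49 first at 83.7 but put GRANTA-519 at 64.4 and Z-138 at 55.7 above REC-1 at 52.9.

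Markers of T and NK cells were measured beside LCK, since that is where it is best known. Of 17 measured, 11 exceeded the filter level on at least 2 arrays, and their summed DMSO intensities ran from 169.5 in HBL-2 to 1856.4 in SP49 and 2579.7 in REC-1. Most of the sum in 3 lines came from TRBC1, a T-cell receptor constant segment, at 1962.2 in REC-1, 1442.6 in SP49 and 1427.9 in Maver-1. CD3D and CD3E, which define T cells, were at 141.3 and 89.1 in REC-1. In the other 7 lines they were at 0.2 to 12.1 under DMSO. The third CD3 chain, CD3G, was at 106.1 in Z-138 and 61.4 in REC-1 and at most 6.0 elsewhere. CD8A was at 180.4 in SP49 and 83.5 in REC-1, CD28 at 594.0 in GRANTA-519, and CD2 and CD4 never exceeded the filter level. The 2 lines with most LCK had the highest summed markers, but in reverse order, and other lines did not follow. Z-138, at rank 3 for LCK with 111.5, had a sum of 307.4. Maver-1 had a sum of 1551.2 with LCK at 49.1. The part of these markers in the LCK level was not tested. In bulk RNA, fewer cells of a type and less RNA per cell cannot be told apart.

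FYN, a kinase of many tissues that acts beside LCK in T cells and in small amounts in B cells, had DMSO intensities of 1433.8 in REC-1, 1090.0 in JVM-2, 300.7 in JVM-13, 292.2 in SP49, 74.2 in Z-138, 68.1 in GRANTA-519, 40.0 in HBL-2 and only 10.8 in Maver-1. The lines fell into steps, with REC-1 and JVM-2 highest, JVM-13 and SP49 level with each other, and Maver-1 below the filter level under both treatments. The SD between arrays of a line was 0.34 and that between line means 2.29 on the log2 scale. Probe sets 216033_s_at and 212486_s_at followed it at r = 0.988 and 0.959 over the 16 arrays. The weaker probe sets 243006_at and 1559101_at followed it at r = 0.705 and 0.612, and exceeded the filter level on 3 and 0 arrays.

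FGR had DMSO intensities of 1287.1 in JVM-2, 218.7 in SP49, 167.5 in JVM-13, 79.9 in GRANTA-519, 44.3 in Maver-1, 43.3 in Z-138, 4.9 in REC-1 and 2.9 in HBL-2. JVM-2 stood far above the other lines, and REC-1 and HBL-2 were below the filter level under both treatments. The SD between arrays of a line was 0.76 on the log2 scale, which is larger than the steps from SP49 to JVM-13 and from Maver-1 to Z-138. GRANTA-519, JVM-2 and JVM-13, lines known to carry Epstein-Barr virus, held ranks 4, 1 and 3 for FGR, and SP49 lay among them, so these lines and the other 5 overlap. FGR has 1 probe set.

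Myeloid markers did not rank the lines as FGR did. Of 11 measured, 4 exceeded the filter level on at least 2 arrays, and CD14, MPO and S100A8 never did. Their summed DMSO intensities were 38.2 to 560.3, highest in HBL-2, where FGR was at 2.9, and 87.8 in JVM-2, where it was at 1287.1. Most of the HBL-2 sum came from TYROBP, at 385.9, and LYZ, at 143.4.

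CSK had DMSO intensities of 2596.3 in SP49, 2186.2 in Maver-1, 2032.0 in GRANTA-519, 1753.7 in HBL-2, 1614.9 in JVM-2, 1140.7 in Z-138, 1012.7 in REC-1 and 656.4 in JVM-13. Sensitive lines were found at both ends of this order, SP49 at rank 1 and REC-1 at rank 7. The lowest value came from the JVM-13 DMSO array that stood apart, and neighbours from Maver-1 to JVM-2 differed by less than the SD between arrays of a line, 0.31 on the log2 scale.

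**Figure D1:**
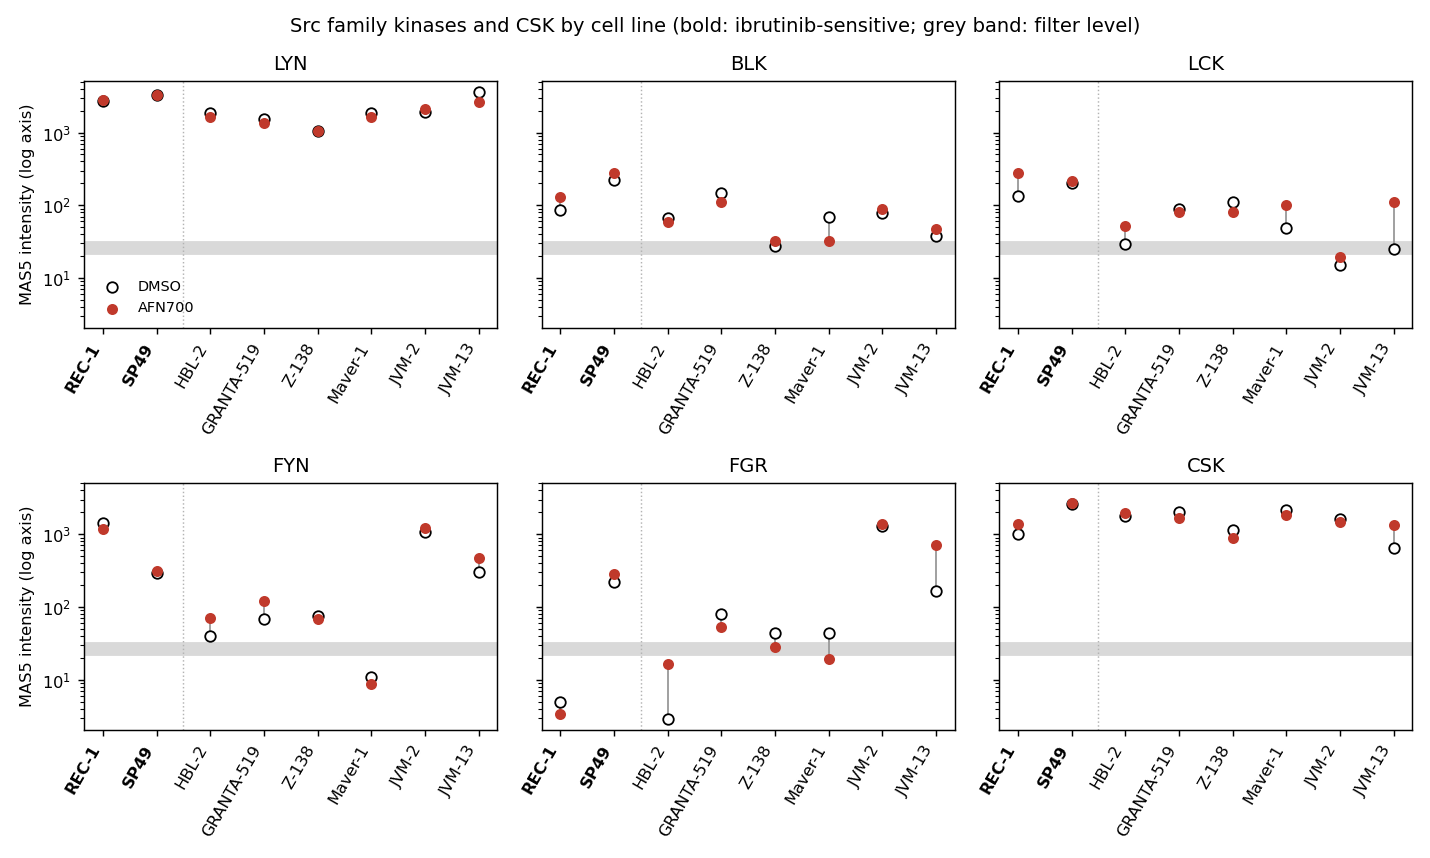
Each panel plots the MAS5 intensity of 1 gene on a log axis, by cell line, with open circles for DMSO and filled circles for AFN700, joined within a line. Bold names are the sensitive lines and the grey band the filter levels of 21.5 to 31.7. LYN and CSK stay far above the band in all 8 lines, while FYN, FGR and LCK fall into or below it in some. BLK lies inside it in Z-138 under DMSO, at 27.5 against 25.4 for that array. With AFN700 BLK lies just above it in Z-138 and Maver-1, at 32.2 in each.

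The sensitive and insensitive lines were then compared on the DMSO arrays, to ask which of these kinases differ before treatment. Of the 6 genes, 5 had higher mean log2 values in the sensitive lines, and none passed limma's test at an adjusted p under 0.05, where 1 gene of 12305 (0.00813%) did. The median difference of the 6 genes was 0.91, against 0.07 over all genes tested, of which 6756 of 12305 were higher. Without JVM-13 4 of the 6 were higher, with a median of 0.94, against 0.02 and 6330 of 12305 higher over all genes.

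LCK averaged 166.4 ± 48.6 (SD, n = 2) in the sensitive and 53.3 ± 38.9 (SD, n = 6) in the insensitive lines. Its log2 difference of 1.85 ± 0.76 (SE) had an adjusted p of 0.8607 by limma. Over the 28 ways to split 8 lines into 2 and 6, the exact 2-sided permutation test of LCK gave p = 0.0714, the smallest p that this test can give, so it cannot reach 0.05. LCK was also the 1 of 6 genes at an unadjusted limma p under 0.05, as were 5.7% of all genes.

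FYN averaged 863.0 ± 807.2 (SD, n = 2) in the sensitive and 264.0 ± 417.7 (SD, n = 6) in the insensitive lines. The log2 difference of FYN was 2.68 ± 1.42 (SE), with an exact permutation p of 0.2143, and JVM-2 and JVM-13 lay between its 2 sensitive values. LYN averaged 3009.6 ± 373.2 (SD, n = 2) against 1962.4 ± 853.3 (SD, n = 6), a log2 difference of 0.71 ± 0.36 (SE) with an exact permutation p of 0.2143. JVM-13 was above both sensitive lines for LYN on the DMSO array that stood apart, while SP49 was highest after quantile normalization and with probe set 202626_s_at. With probe set 210754_s_at and with pseudocounts of 1 and 16 JVM-13 stayed highest. For BLK the log2 difference was 1.12 ± 0.68 (SE), with an exact permutation p of 0.1429 and GRANTA-519 between the sensitive values.

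FGR was at 111.8 ± 151.2 (SD, n = 2) in the sensitive and 270.8 ± 501.0 (SD, n = 6) in the insensitive lines, and its log2 difference of -0.90 ± 1.80 (SE) was smaller than its error. Without REC-1 it was 1.48. CSK, at 0.16 ± 0.49 (SE), also differed by less than its error, and its difference was -0.52 without SP49 and -0.07 without JVM-13. The exact permutation p was 0.7857 for FGR and 0.8571 for CSK. The adjusted p-values by limma for LYN, BLK, FYN, FGR and CSK were 0.8862 to 0.9630.

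AFN700 was then compared with DMSO within each line. None of the 6 kinases rose or fell past limma's threshold over the 8 lines, nor did any gene (0% of 12305, lowest adjusted p 0.3053). Without JVM-13 limma called 10 genes, none of them a member of the 6. At an unadjusted p under 0.05 limma counted 1006 genes (8.18%), 791 higher and 215 lower, and among the 6 kinases LCK alone. LCK had the highest mean response and LYN the lowest of the 6. The median response of the 6 genes was 0.14 and 4 were positive, beside 0.06 and 7741 of 12305 positive over all genes. Without JVM-13 2 were positive, with a median of -0.05, against 0.03 and 6957 of 12305 positive over all genes.

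LCK intensities under AFN700, each after the DMSO value, were 279.9 after 132.0 in REC-1, 215.8 after 200.8 in SP49, 51.5 after 29.5 in HBL-2, 79.5 after 89.7 in GRANTA-519, 79.9 after 111.5 in Z-138, 100.8 after 49.1 in Maver-1, 19.7 after 15.1 in JVM-2 and 112.1 after 25.1 in JVM-13. LCK was higher with AFN700 in 6 lines and lower in GRANTA-519 and Z-138. Its mean log2 difference was 0.58 ± 0.80 (SD over lines), with a limma SE of 0.25 and an adjusted p of 0.5979. The exact 2-sided sign-flip test over the 8 lines gave p = 0.0859 (smallest possible p 0.00781). Without JVM-13 the mean was 0.37 ± 0.59 (SD, n = 7) and the exact sign-flip p was 0.1719 (smallest possible p 0.0156).

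The 2 LCK probe sets gave the same sign and a similar size in REC-1 (1.07 and 1.13) and in JVM-13 (2.02 and 1.93). They differed in sign in HBL-2, at 0.74 and -0.66, and in Z-138, at -0.46 and 0.0024, and in size in Maver-1, at 0.99 and 0.01, and GRANTA-519, at -0.17 and -0.56. In SP49 (0.10 and 0.15) and JVM-2 (0.32 and 0.59) they had the same sign. In HBL-2 and JVM-2 the second probe set was below the filter level on both arrays. Over all lines its mean was 0.32 ± 0.87 (SD) and its median 0.08, with JVM-13 highest at 1.93. The probe set that stands for LCK had a mean of 0.58 ± 0.80 (SD) and a median of 0.53. The actin 3'/5' ratio went up in HBL-2, Maver-1, SP49, Z-138 and JVM-13 and not in the other 3 lines, and its part in these differences was not tested.

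LYN intensities under AFN700 were 2775.6 after 2745.7 in REC-1, 3332.9 after 3273.5 in SP49, 1649.2 after 1850.1 in HBL-2, 1350.5 after 1524.5 in GRANTA-519, 1053.1 after 1062.2 in Z-138, 1637.0 after 1852.6 in Maver-1, 2075.0 after 1906.6 in JVM-2 and 2603.6 after 3578.2 in JVM-13. Apart from JVM-13, at -0.46, no line moved by more than 0.18 on the log2 scale. The mean of LYN was -0.10 ± 0.18 (SD, n = 8), with a limma SE of 0.08, an adjusted p of 0.7219 and an exact sign-flip p of 0.1172. Without JVM-13 it was -0.05 ± 0.12 (SD, n = 7).

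The other LYN probe sets had lower values with AFN700 in more lines. Probe set 202626_s_at was lower in 8 of 8 lines, from -0.84 in JVM-13 (1331.7 to 744.6) to -0.0024 in JVM-2 (471.9 to 471.1), with a mean of -0.32 ± 0.24 (SD, n = 8). Such a sign in all 8 lines was found for 0.669% of the 28116 probe sets past the filter, and this one was singled out after its values were seen. Probe set 210754_s_at was lower in 7 of 8 lines, with a mean of -0.47 ± 0.54 (SD, n = 8). Its lowest differences were -1.31 in HBL-2 (515.1 to 205.3), -1.19 in JVM-13 (1196.4 to 521.5) and -0.63 in Maver-1 (297.1 to 190.5). These are the lines with the array that stood apart and with the higher actin ratio, and the part of either was not tested. Among the 3 lines whose actin ratio did not go up, 202626_s_at was at -0.35 in REC-1, -0.31 in GRANTA-519 and -0.0024 in JVM-2. In these lines, in the same order, 210754_s_at was at -0.27, -0.07 and 0.23. The probe set that stands for LYN was at 0.02, -0.17 and 0.12.

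**Figure D2:**
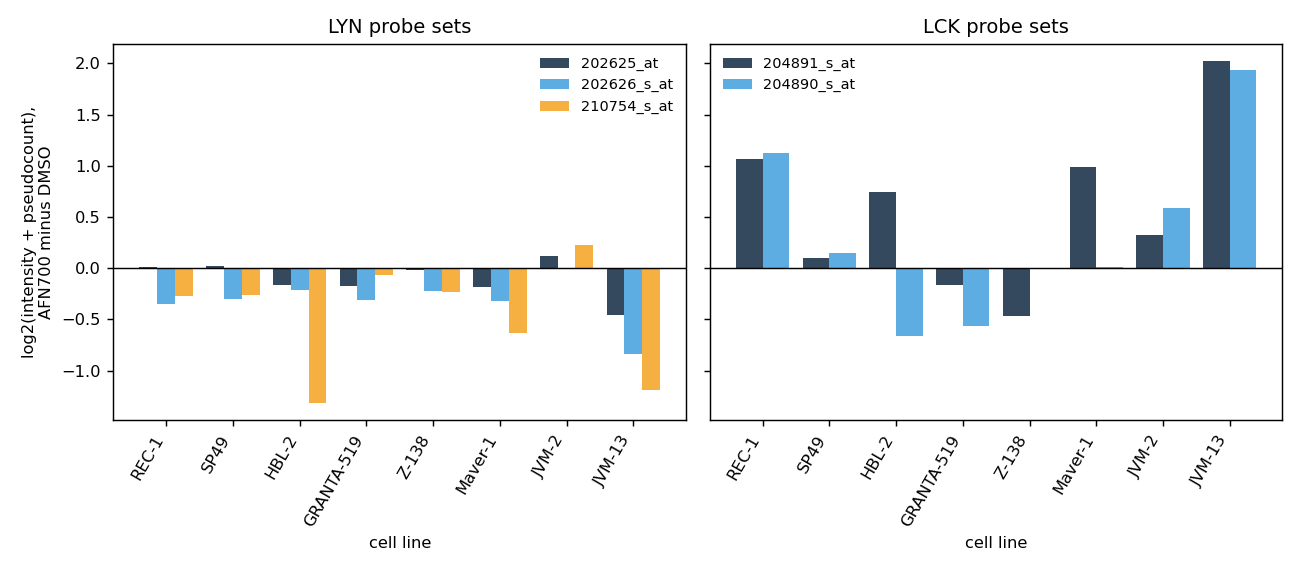
Bars give the log2 difference, AFN700 minus DMSO, by cell line for the 3 LYN probe sets (left) and the 2 LCK probe sets (right). The LYN probe set 202626_s_at is at or below 0 in all 8 lines, and the LCK probe sets part in HBL-2, at 0.74 and -0.66.

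BLK intensities under AFN700 were 128.3 after 86.9 in REC-1, 279.4 after 219.6 in SP49, 59.0 after 67.6 in HBL-2, 110.8 after 146.9 in GRANTA-519, 32.2 after 27.5 in Z-138, 32.2 after 69.4 in Maver-1, 88.4 after 77.3 in JVM-2 and 46.9 after 37.4 in JVM-13. BLK was higher in 5 lines and lower in 3, with a mean of -0.0045 ± 0.51 (SD, n = 8) and an adjusted p of 0.9985. Its SE by limma was 0.19, and the exact sign-flip p was 0.9766. The mean turned positive without HBL-2 (0.02), GRANTA-519 (0.05) or Maver-1 (0.14). Both sensitive lines, at 0.54 in REC-1 and 0.34 in SP49, responded above all 6 insensitive lines, as 2.56% of genes did.

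FYN intensities under AFN700 were 1170.3 after 1433.8 in REC-1, 309.3 after 292.2 in SP49, 69.5 after 40.0 in HBL-2, 121.6 after 68.1 in GRANTA-519, 69.3 after 74.2 in Z-138, 8.8 after 10.8 in Maver-1, 1200.2 after 1090.0 in JVM-2 and 472.4 after 300.7 in JVM-13. GRANTA-519 (0.81), HBL-2 (0.75) and JVM-13 (0.65) were highest and REC-1 (-0.29) lowest. The mean of FYN was 0.23 ± 0.45 (SD, n = 8), with a limma SE of 0.17, an adjusted p of 0.7220 and an exact sign-flip p of 0.2109. Averaged over all its probe sets it was -0.03. The second probe set, 216033_s_at, gave 0.93 in GRANTA-519 but -0.56 in HBL-2 and 0.04 in JVM-13.

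FGR intensities under AFN700 were 3.4 after 4.9 in REC-1, 283.3 after 218.7 in SP49, 16.5 after 2.9 in HBL-2, 52.3 after 79.9 in GRANTA-519, 27.9 after 43.3 in Z-138, 19.0 after 44.3 in Maver-1, 1371.5 after 1287.1 in JVM-2 and 708.2 after 167.5 in JVM-13. It was higher in 4 lines and lower in 4, and JVM-13 (2.06) and Maver-1 (-1.09) were the ends of the range. The mean was 0.21 ± 1.12 (SD, n = 8), with a limma SE of 0.32, an adjusted p of 0.8878 and an exact sign-flip p of 0.6094. Without JVM-13 the mean was -0.06, and without HBL-2 -0.0039.

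CSK intensities under AFN700 were 1399.9 after 1012.7 in REC-1, 2660.1 after 2596.3 in SP49, 1969.7 after 1753.7 in HBL-2, 1648.6 after 2032.0 in GRANTA-519, 880.0 after 1140.7 in Z-138, 1847.7 after 2186.2 in Maver-1, 1454.7 after 1614.9 in JVM-2 and 1326.9 after 656.4 in JVM-13. CSK was higher in 4 lines and lower in 4, with a mean of 0.08 ± 0.47 (SD, n = 8), a limma SE of 0.14 and an adjusted p of 0.9018. The exact sign-flip p was 0.7109. Without JVM-13 the mean was -0.06, and with arrays centred on their median over 8 lines it was -0.02.

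**Figure D3:**
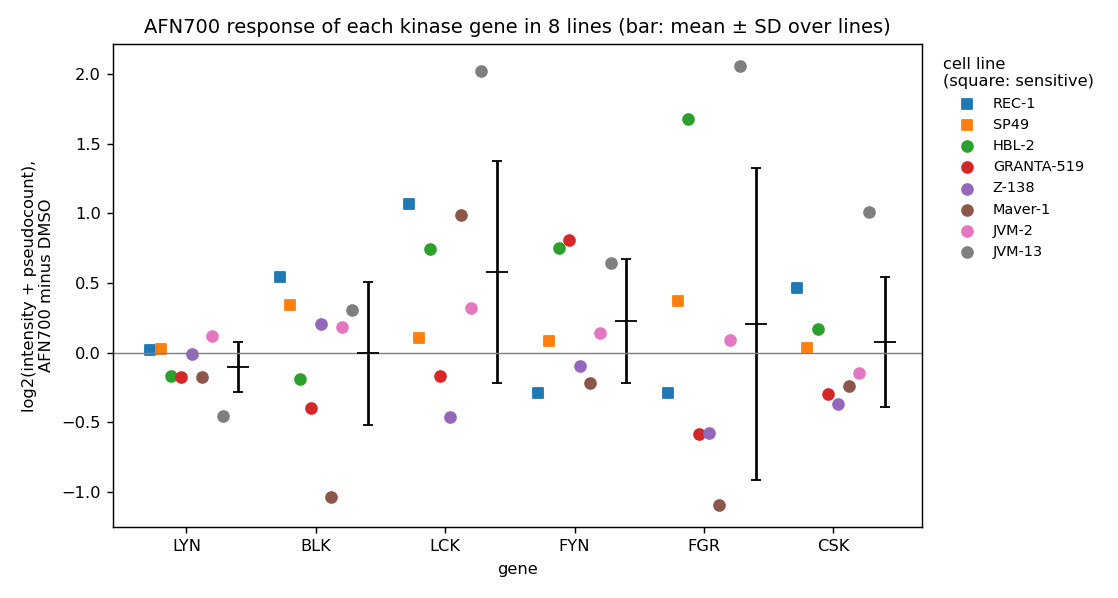
Points give the log2 difference, AFN700 minus DMSO, of each gene in each of the 8 lines (squares: sensitive), and bars the mean ± SD over lines. LYN varies least between lines, with an SD of 0.18, and FGR most, with an SD of 1.12. JVM-13 is highest for LCK, FGR and CSK and lowest for LYN.

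Within single lines, a change of at least 2-fold on the log2 scale with the pseudocount was found for 3 of the 6 kinases in JVM-13, LCK, FGR and CSK, all higher, where 32.7% of all genes passed that mark. The line's all-gene median difference was 0.27. Maver-1 had 2, BLK and FGR, both lower, against 3.05% of all genes. With AFN700 FGR was at 19.0, below that array's filter level of 26.6, and BLK was near it at 32.2. REC-1 had 1, LCK, against 3.56%. HBL-2 had 1, FGR, between values below the filter level, against 14.3%. SP49, GRANTA-519, Z-138 and JVM-2 had 0 of 6, against 3.73%, 8.14%, 2.74% and 2% of all genes.

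Sensitive and insensitive lines were also set apart for their response. Limma called 0% of genes in the sensitive lines, 0% in the insensitive lines and 0% for the difference between them, while 351, 743 and 182 genes had an unadjusted p under 0.05. The response of BLK averaged 0.44 in the sensitive and -0.15 in the insensitive lines, a difference of 0.60 ± 0.43 (SE) with an adjusted p of 0.9997. The exact 2-sided permutation test gave p = 0.0714, again the smallest it can give. For LCK the 2 responses were 0.58 and 0.57 and their difference 0.01 ± 0.60 (SE). Each rests on few lines: the sensitive mean was 0.10 without REC-1 and 1.07 without SP49, and the insensitive mean 0.28 when JVM-13 was left out and 0.17 when HBL-2 was left out with it. The other differences were -0.44 ± 0.40 (SE) for FYN, -0.22 ± 0.78 (SE) for FGR, 0.17 ± 0.18 (SE) for LYN and 0.23 ± 0.33 (SE) for CSK, with exact permutation p-values of 0.2857 to 1.0.

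Other members of the family were measured for comparison, with SRC, YES1 and FRK found of the 4 listed. None passed limma's threshold in either comparison. YES1, a widely expressed member, was at 222.9 to 618.9 under DMSO in 6 lines but at 2.6 in HBL-2 and 4.7 in JVM-13, and at 3.1 and 2.3 there with AFN700. SRC was at 74.5 in JVM-2 and 77.2 in JVM-13 and at 0.6 to 48.7 in the other lines, and exceeded the filter level on 7 arrays. FRK exceeded it on all 16 arrays, with DMSO intensities of 27.0 in JVM-13 to 359.2 in GRANTA-519.

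Genes that set Src kinase activity were taken from a list of 16 adaptors of CSK, its homologue MATK, phosphatases and ubiquitin ligases, of which 15 passed the filter and MATK never exceeded it. With AFN700 none passed limma's threshold in either direction over 8 lines. Of the 15, 8 were positive and 7 negative, where 7741 of 12305 genes were positive. Their median was 0.04 against 0.06 over all genes. Without JVM-13 7 were positive and 8 negative, with a median of -0.01, against 6957 of 12305 positive and 0.03 over all genes. PAG1, a membrane adaptor that brings CSK to the Src kinases, was lower in 7 of 8 lines, with a log2 difference of -0.38 ± 0.14 (SE) and an adjusted p of 0.5634. In HBL-2 its intensity was 1054.3 under DMSO and 569.8 with AFN700. DOK3, an adaptor that damps receptor signals, was higher in 7 of 8 lines, at 0.40 ± 0.17 (SE), and at 0.24 without JVM-13, where it was at 182.8 and 546.8. PTPRC, which encodes CD45, was at -0.26 ± 0.12 (SE), and CBLB, a ubiquitin ligase, at 0.46 ± 0.22 (SE).

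Under DMSO, 12 of these 15 genes were higher in the sensitive lines, with a median of 0.73, where 6756 of 12305 genes were higher over all, with a median of 0.07. None passed limma's threshold. The same number was higher without JVM-13, with a median of 0.54, against 0.02 and 6330 of 12305 higher over all genes. PTPRC had intensities of 2187.1 in REC-1 and 2443.1 in SP49, and its log2 difference was 1.10 ± 0.54 (SE), though HBL-2 at 2832.8 was above both. PTPRCAP, a partner of CD45, differed by 2.05 ± 1.06 (SE), CBLB by 1.30 ± 0.72 (SE) and CBL by 0.92 ± 0.53 (SE).

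The substrates and partners nearest to the kinases were taken from a list of B-cell receptor subunits, co-receptors and proximal signalling genes, of which 21 were tested. Over 8 lines 12 were positive with AFN700 and 9 negative, with a median of 0.04, and none passed limma's threshold. Over all genes 7741 of 12305 were positive, with a median of 0.06. Without JVM-13, 8 were positive and 13 negative, with a median of -0.12, against 6957 of 12305 positive and 0.03 over all genes. Those of smallest p were CD5, a co-receptor, at 0.42 ± 0.18 (SE) but above the filter level on only 2 arrays, the adaptor BLNK at 0.37 ± 0.18 (SE), the receptor FCRL3 at -0.48 ± 0.24 (SE) and the adaptor DAPP1 at -0.25 ± 0.13 (SE). BLNK was at 466.2 and 1711.4 on the DMSO and AFN700 arrays of JVM-13, and its mean difference without that line was 0.16.

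On the DMSO arrays 19 of these 21 genes were higher in the sensitive lines, with a median of 1.08. Over all genes 6756 of 12305 were higher, with a median of 0.07. None passed limma's threshold, and 7 of 21 had an unadjusted p under 0.05, as had 702 of 12305 genes (5.7%). Without JVM-13, 18 of 21 were higher, with a median of 0.78, against 0.02 and 6330 of 12305 higher over all genes. FCRL3 differed by 4.48 ± 1.43 (SE), with DMSO intensities of 1205.6 in REC-1 and 348.6 in SP49 and at most 214.4 elsewhere. CD79A, the receptor chain that LYN phosphorylates, had DMSO intensities of 1499.3 (REC-1) and 1685.0 (SP49) and was at 661.8 to 1261.5 in the insensitive lines, a difference of 0.79 ± 0.28 (SE). VAV1, an exchange factor, differed by 1.14 ± 0.39 (SE) and GAB1, an adaptor, by 1.65 ± 0.57 (SE). The adjusted p-values of these 4 genes were 0.7699 to 0.8262. Differentiation markers were read beside them. All 4 plasma cell markers had lower means in the sensitive lines, with a median of -2.49, where 5549 of 12305 genes were lower. SDC1 was at -5.26 ± 0.93 (SE) and TNFRSF17 at -3.38 ± 0.83 (SE). Of 10 B-cell markers, 7 had higher means, with a median of 0.69, where 6756 of 12305 genes were higher. CD79A, CD79B, CD22 and BLNK are in both this list and that of the receptor genes, and all were higher. Of the markers not shared, MS4A1 (0.13), PAX5 (1.27) and SPIB (2.30) were higher. EBF1 (-0.23), CD74 (-0.46) and POU2AF1 (-0.30) were lower. None of the plasma cell or B-cell markers passed limma's threshold. Their part in the differences of the kinases and their partners was not tested.

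Genes used as reporters of NF-kB, which AFN700 is meant to lower, were read on the same arrays. All 9 tested had lower mean values with AFN700, where 4564 of 12305 genes were lower. The list was chosen with earlier results of these data known, so this count is no independent test of the inhibitor. Their median was -0.60 over 8 lines and -0.93 without JVM-13, and none passed limma's threshold. TNFAIP3, which encodes the NF-kB inhibitor A20, was at -0.90 ± 0.28 (SE) and NFKBIA, the inhibitor IkB-alpha, at -0.63 ± 0.29 (SE), each lower in 6 of 8 lines. All 9 reporters were lower in REC-1, SP49, HBL-2 and GRANTA-519, 8 in JVM-2 and 7 in Z-138. The median difference was small in Z-138, at -0.11, and -1.63 (SP49) to -0.87 (GRANTA-519 and JVM-2) in the lines named with it. In Maver-1 1 of 9 was lower, with a median difference of 0.07, and NFKBIA was at 379.6 and 382.6. In JVM-13 all 9 were higher on the array labelled as treated, with a median of 1.0, and NFKBIA was at 466.9 and 1295.6.

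The genes most like LCK, FYN and FGR across the 8 line means were found among all 12305 genes, as a description. These 3 were the kinases whose line means had an SD of at least 1 on the log2 scale. The points share line, culture and array, and among so many genes a high r over 8 points is common: 17 genes exceeded 0.9 with LCK, 12 with FYN and 40 with FGR. ZNF554 was most like LCK, with r = 0.955, rho = 0.976 and r = 0.898 without the 2 lines farthest from the median, followed by ITSN1 at r = 0.950 and CCDC157 at r = 0.944. SPAG7 was most like FYN, with r = 0.985, rho = 0.976 and r = 0.979 without those lines, followed by ALAS1 at r = 0.941 and FUT8-AS1 at r = 0.926. RAB9A was most like FGR, with r = 0.985, rho = 0.976 and r = 0.994, followed by ADCY6 at r = 0.972 and TP73 at r = 0.963. A high r does not mean a like range. Line means on the log2 scale ran only from 4.62 to 5.12 for FUT8-AS1 and from 3.71 to 5.0 for CCDC157. ADCY6 was low in several lines, at 2.13 in REC-1 and 2.41 in HBL-2.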

How the data were processed

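RNA was measured on 16 arrays, 1 per line and treatment. The authors' linear intensities come from MAS5, named in the submitters' processing notes per the labels, with its version not given in the sources used here. Each deposited array has a 2% trimmed mean of 150. Of 54675 probe sets, 41097 had 1 gene in the platform table, 1801 several and 11777 were not listed.

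Analysis used log2(intensity + 3.3), where 3.3 is the 25th percentile of all intensities. limma 3.58.1 in R 4.3.3 (lmFit, eBayes with trend, Benjamini-Hochberg) was fitted to 12305 genes. The cell line was a fixed block, since the labels give both arrays to 1 line, with AFN700 terms for all, sensitive and insensitive lines. The DMSO fit used 8 arrays. These steps were tested on simulated data. Exact tests were 2-sided, doubling the smaller tail. P-values measure the spread between lines, each with single arrays.

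The kinases and gene lists were chosen with earlier results of these data known. Named were all kinases and, per list and comparison, at most 4 genes by smallest p, plus the 3 genes most like each kinase with an SD of at least 1. Alternatives were other pseudocounts, scalings, filters, probe set rules, no trend, no block, another threshold and leaving out lines. Leaving out JVM-13 with HBL-2, the exact tests without JVM-13 and the list counts without it were added after seeing the data. Figures used matplotlib 3.10.9.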

Additional observations from a re-analysis of the deposited data

Results flagged for a closer look

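Of 18 groups of 8 values of the kinases, 2 held a value whose gap to the next exceeded the critical value of 0.526 of the group's range, both on the linear intensity scale. The FGR intensity of JVM-2 under DMSO was 1287.1, with a gap of 0.832. The BLK intensity of SP49 under AFN700 was 279.4, with a gap of 0.611. Linear intensities are skewed, so the usual rate of about 1 chance flag in 20 groups need not hold, and on the log2 scale used for all tests the gaps were 0.330 and 0.369, below the critical value.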

How the results depend on the processing

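LCK kept a positive mean response over the lines and LYN a negative one under every alternative tried, leaving out each line included: LCK ran from 0.31 without JVM-13 and HBL-2 to 0.73 without Z-138, and LYN from -0.30 with the mean of its probe sets to -0.03 without JVM-13 and HBL-2. Neither passed the threshold in any alternative. The other filters, no trend, no block and the other threshold leave these means unchanged by construction, so they do not bear on the sign. The BLK mean changed sign to 0.0022 with a pseudocount of 16 and 0.0014 with quantile normalization, and leaving out single lines gave -0.083 to 0.1426. The FYN mean was -0.028 with the mean of all probe sets. Leaving out single lines gave -0.0587 to 0.3917 for FGR and -0.057 to 0.1409 for CSK. Without JVM-13 and HBL-2 together FGR was at -0.3476 and CSK at -0.0944, and with centred arrays CSK was at -0.0216. On the DMSO arrays CSK was at -0.0021 with centred arrays and -0.0605 without JVM-13 and HBL-2, and leaving out single lines gave -0.52 to 0.8354 for CSK and -3.277 to 1.4818 for FGR.

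Leaving out single lines gave 0 to 10 calls over 8 lines, the 10 without JVM-13, and 0 to 46 calls between DMSO groups, with 46 without SP49, 3 without GRANTA-519 or JVM-2 and 0 without REC-1, HBL-2, Z-138 or JVM-13. Without JVM-13 and HBL-2 there were 37 calls over the lines, 5 in the sensitive lines and 0 between the DMSO groups. The 1 call on the DMSO arrays became 3 with a pseudocount of 16, 5 without a filter, 0 with a filter on at least 8 arrays, 0 with the mean of all probe sets, 8 without a trend and 2 at a threshold of 0.10. The cause of these changes was not tested. Without the cell line as a block (no replicate block) the counts of calls stayed at 0, the LCK mean was the same and its adjusted p was 1.

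In the sensitive lines LYN was at -0.1374 with quantile normalization and -0.1907 with the mean of its probe sets, and FGR at -0.0257 with a pseudocount of 1. In the insensitive lines CSK was at -0.1105 with centred arrays and -0.2667 without JVM-13 and HBL-2, and FGR at -0.5407 without them. For the difference of responses LYN was at -0.0358 with quantile normalization, LCK at -0.0151 with a pseudocount of 1 and FGR at 0.5792 without JVM-13 and HBL-2. Leaving out single lines gave -0.2922 to 0.0812 for FYN and -0.2915 to 0.3685 for FGR in the sensitive lines, and -0.2452 to 0.0221 for BLK, -0.0975 to 0.533 for FGR, -0.1799 to 0.097 for CSK in the insensitive lines, and -0.4716 to 0.4918 for LCK and -0.5533 to 0.136 for FGR for the difference of responses. Signal over background limits BLK, LCK, FYN and FGR in the lines near or below the filter level.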
